A study of Rattus norvegicus with 6 samples.

Results

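The transcripts of 10 transcription factor genes were followed in rat chondrocytes treated with retinoic acid. These were the Fos family (Fos, Fosb, Fosl1 and Fosl2), the Jun family (Jun, Junb and Jund), and Atf3, Egr1 and Myc. They were found by their symbols in the deposited tables, where all 10 were present among 18923 genes, each under 1 identifier. All 10 passed the filter on low counts that left 13438 genes for testing. The CON group consisted of primary chondrocytes of wild-type newborn female Sprague-Dawley rats kept for 24 h in high-glucose DMEM with 10% FBS and penicillin-streptomycin. The RA group received 1 µM all-trans retinoic acid, a vitamin A derivative, in the same medium for 24 h. Each group had 3 samples, described as independent, and p-values measure the spread between these samples. No source used here names a vehicle for CON or says whether animals were pooled, and all cells were cultured to passage 1 or 2 before use.

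AP-1 is a dimer of basic leucine zipper proteins in which a Jun protein pairs with another Jun protein, with a Fos protein or with a relative such as ATF3. The dimer binds a short DNA element in the promoters of many genes, among them the collagenases that degrade cartilage matrix. Fos, Jun and Egr1 are immediate early genes, whose transcription starts within minutes of a serum, growth factor or stress signal without new protein synthesis, and much of their transcript is gone again within hours. Egr1 is a zinc finger factor, and Myc pairs with Max to drive genes of growth and ribosome production. Retinoic acid receptors are known from other systems to restrain the activity of AP-1 proteins.

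Among the 10 genes, Fosl1 rose and Atf3 fell beyond the threshold for differentially expressed genes (DEGs), and Jun and Egr1 rose by less. Fosl1 increased 2.67-fold, and Atf3 was 1.81-fold lower in RA than in CON. Jun was 1.45-fold and Egr1 1.42-fold higher in RA. Fos, Fosb, Fosl2, Junb, Jund and Myc did not pass the test. A DEG needed an adjusted p (Benjamini-Hochberg, edgeR's quasi-likelihood test) below 0.05 together with a log2 fold change beyond 0.58. By this rule 2 of the 10 genes were DEGs, against 4.96% of all tested genes (2.67% higher and 2.29% lower in RA). By adjusted p alone 4 of the 10 passed, against 9.82% of all tested genes (5.31% higher and 4.5% lower). Without CON sample 1, the sample that stood furthest from the others, both numbers were the same. The 6 leave-one-out fits gave 2 to 3 DEGs, with 3 without CON sample 2 or CON sample 3, and 3 to 4 genes by adjusted p, with 3 without CON sample 2 or any 1 of the RA samples. In bulk RNA, a change in the number of cells that express a gene and a change in transcript per cell cannot be told apart.

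The promoters of 3 of these genes are shown, namely that of the gene with the largest rise and the 2 with a match to 1 of the elements marked below. Whether these matches have a part in the response to RA was not tested. Promoter sequences from RefSeq on the rat assembly GRCr8 matched 6 of the 10 symbols (Fosb, Fosl1, Fosl2, Junb, Jund and Egr1), and the 250 bases before the annotated start are given 5′ to 3′ on the strand of the gene. The deposited counts were made on the older build Rnor_6.0, so the positions below belong to the sequences and not to the counts. Fosl1 lies at chr1:212183635-212183884, plus strand, Jund at chr16:18769772-18770021, minus strand, and Egr1 at chr18:26736828-26737077, plus strand. Capitals mark a match to the cyclic AMP response element TGACGTCA in Jund and to the CArG box, the site of serum response factor, in Egr1.
Fosl1: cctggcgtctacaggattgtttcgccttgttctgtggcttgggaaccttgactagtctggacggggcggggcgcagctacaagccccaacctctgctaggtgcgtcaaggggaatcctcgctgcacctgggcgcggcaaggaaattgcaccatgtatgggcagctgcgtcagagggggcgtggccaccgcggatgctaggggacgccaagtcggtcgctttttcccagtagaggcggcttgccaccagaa
Jund: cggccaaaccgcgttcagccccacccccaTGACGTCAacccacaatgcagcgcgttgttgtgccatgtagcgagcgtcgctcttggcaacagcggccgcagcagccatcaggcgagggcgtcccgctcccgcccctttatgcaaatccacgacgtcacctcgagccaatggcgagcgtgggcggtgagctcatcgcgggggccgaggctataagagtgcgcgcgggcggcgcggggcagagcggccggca
Egr1: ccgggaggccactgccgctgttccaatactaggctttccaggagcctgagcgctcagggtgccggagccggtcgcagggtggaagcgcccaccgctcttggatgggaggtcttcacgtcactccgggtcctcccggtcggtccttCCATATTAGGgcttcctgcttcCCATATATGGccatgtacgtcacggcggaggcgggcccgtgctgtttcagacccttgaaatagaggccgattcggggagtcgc
The element of Jund spans positions -221 to -214 from the start, and 1.59% of 33469 rat promoter windows of the same length held this sequence on either strand. Egr1 held 2 CArG boxes, CCATATTAGG at -105 to -96 and CCATATATGG at -83 to -74, and 1.5% of the windows held at least 1. All motifs were searched on both strands. The TATA sequence TATAAA, present in 12.9% of the windows, matched Junb and, on the opposite strand, Fosb. The AP-1 element TGACTCA, present in 4.05% of all windows, matched none of the 6 promoters. Neither did CACGTG, the E-box of Myc and Max, with 5.59% of all windows, nor a direct repeat of AGGTCA with 5 bases between, the classical element of retinoic acid receptors, with 0.00896%. These windows are short, and a missing match says only that these letters do not occur in them.

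Fosl1 encodes FRA-1, a Fos protein that lacks the transactivation domain of FOS. Its level was 4.78, 5.20 and 5.27 FPKM in CON samples 1, 2 and 3 and 15.4, 12.6 and 13.2 FPKM in RA samples 1, 2 and 3. FPKM is the read count divided by gene length and by the sequencing depth of the sample. Every RA sample lay well above every CON sample, and RA sample 1 was the highest. On the log2 scale the change was 1.41 ± 0.106 (SE; adjusted p = 1.27e-04, edgeR), with a 95% interval of 2.25- to 3.16-fold. Fosl1 ranked 110 by fold change among the 359 DEGs that were higher in RA. It was a DEG in all 6 leave-one-out fits, in which its log2 fold change lay between 1.33 and 1.47, and also under each of the other 8 alternative fits.

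The other Fos genes showed no such change. Fos, the founding member of the family, had 3.34, 3.07 and 2.73 FPKM in CON and 3.12, 2.19 and 2.81 FPKM in RA. The groups overlapped, and the lowest sample was RA sample 2. Fos had a log2 fold change of -0.18 ± 0.169 (SE; adjusted p = 0.554, edgeR), and its 95% interval ran from 0.673- to 1.15-fold. Fosb, a close relative of Fos, was hardly detected, with 25 to 37 reads per CON sample and 26 to 38 per RA sample. In FPKM this was 0.244, 0.222 and 0.260 in CON and 0.234, 0.319 and 0.328 in RA. With so few reads the interval of Fosb was wide, from 0.802- to 1.80-fold, and a change of the size of Jun or Egr1 was not detectable at this depth. Fosl2, the gene of FRA-2, had 10.2, 14.1 and 14.7 FPKM in CON and 14.7, 13.0 and 14.0 FPKM in RA. CON sample 1 stood below the 5 other samples, which overlapped. On the log2 scale the change was 0.08 ± 0.152 (SE; adjusted p = 0.786, edgeR), and without CON sample 1 it was -0.07.

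**Figure D1:**
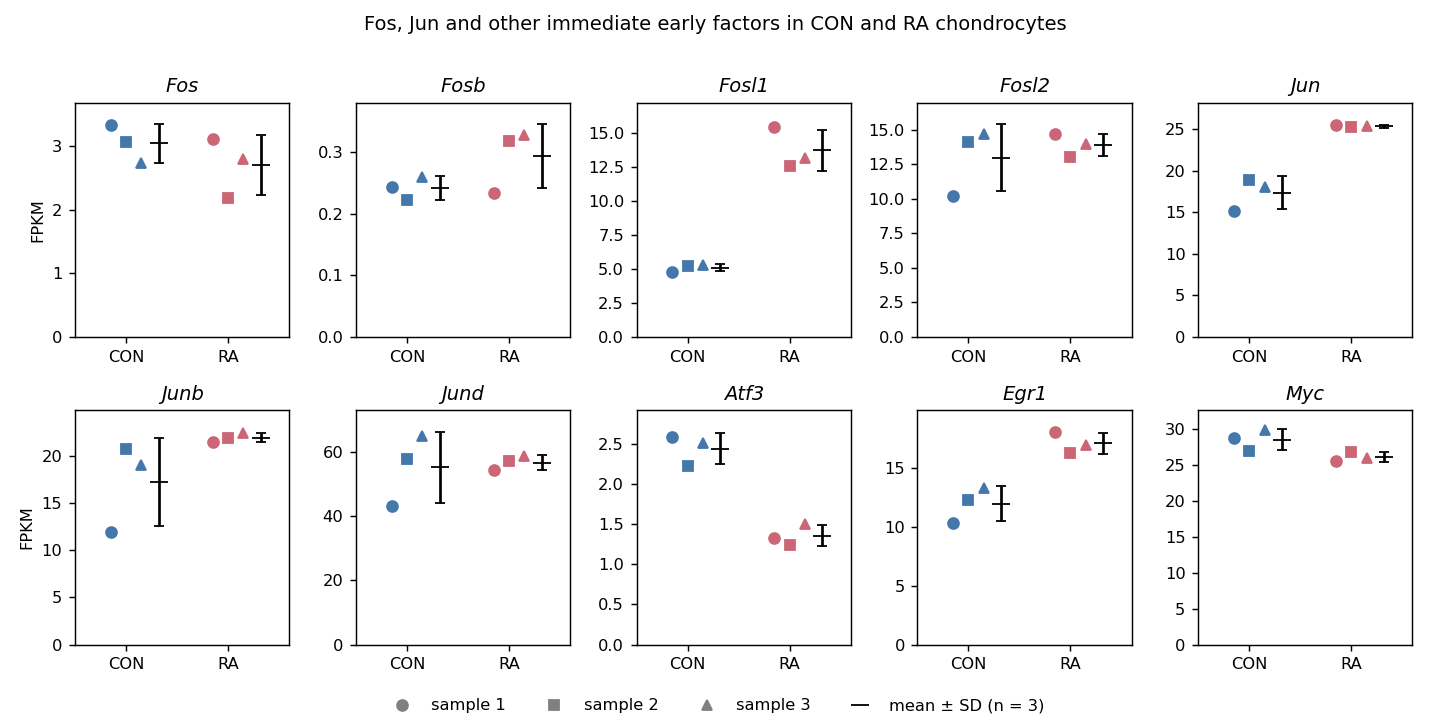
FPKM (vertical axis, from 0, with a scale of its own for each gene) of the 10 genes in the CON (blue) and RA (red) samples, with the mean and SD of 3 samples in black. Fosl1, Jun and Egr1 lie above every CON sample in each RA sample, Atf3 lies below, and CON sample 1 (circle) is the lowest point for Fosl2, Junb and Jund.

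Among the Jun genes, Jun itself changed. Its protein is the main activating partner in AP-1. Jun had 15.1, 18.9 and 18.1 FPKM in CON and 25.5, 25.2 and 25.3 FPKM in RA. The RA samples were nearly identical and lay above every CON sample. Jun had a log2 fold change of 0.53 ± 0.0884 (SE; adjusted p = 0.00674, edgeR), below the fold threshold for a DEG, with a 95% interval of 1.26- to 1.67-fold. The adjusted p of Jun stayed below 0.05 in all 6 leave-one-out fits. Without CON sample 2 the log2 fold change was 0.59, which made Jun a DEG in that fit alone, and without CON sample 1 it was 0.44.

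Junb and Jund encode partners that are weaker activators than JUN in many settings, and JUND is often linked to slower growth. Junb had 11.9, 20.7 and 19.0 FPKM in CON and 21.4, 21.8 and 22.4 FPKM in RA. All RA samples were above all CON samples, but CON sample 2 came close to them and CON sample 1 stood far below. Junb had a log2 fold change of 0.33 ± 0.177 (SE; adjusted p = 0.298, edgeR), and without CON sample 1 it was 0.13. Jund was the most abundant of the 10 genes per length, with 43.2, 57.8 and 65.0 FPKM in CON and 54.3, 57.3 and 58.7 FPKM in RA. The 3 RA samples fell inside the range of CON. On the log2 scale the change was 0.02 ± 0.137 (SE; adjusted p = 0.941, edgeR), with an interval of 0.817- to 1.26-fold, and it was -0.13 without CON sample 1 and -0.0042 without RA sample 3.

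Atf3, a stress-induced factor that represses many promoters as a homodimer, was the only gene of the 10 with a decrease that passed the test. It had 2.59, 2.22 and 2.51 FPKM in CON and 1.33, 1.24 and 1.50 FPKM in RA. Each RA sample was below each CON sample, and the groups were clearly apart. On the log2 scale the change was -0.86 ± 0.140 (SE; adjusted p = 0.00631, edgeR), with a 95% interval of 0.442- to 0.689-fold. Atf3 was a DEG in all 6 leave-one-out fits, with log2 fold changes from -0.94 to -0.80. Of the other 8 alternative fits, limma on log2(FPKM + 1) ended the DEG call of Atf3, at -0.54 with an adjusted p of 0.00741. It ranked 195 by fold change among the 308 DEGs that were lower in RA.

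Egr1 had 10.3, 12.2 and 13.2 FPKM in CON and 18.0, 16.2 and 16.9 FPKM in RA. Every RA sample exceeded every CON sample. Egr1 had a log2 fold change of 0.50 ± 0.0999 (SE; adjusted p = 0.0157, edgeR), short of the fold threshold, with a 95% interval of 1.21- to 1.66-fold. The direction was the same in all leave-one-out fits, but the adjusted p was not below 0.05 without CON sample 2 (0.51, adjusted p = 0.0635, edgeR) or any 1 of the RA samples (0.47, 0.53 and 0.50), and over all alternatives it ran from 1.82e-04 to 0.0753. Without CON sample 3 Egr1 was a DEG, at 0.595. Myc had 28.7, 27.0 and 29.8 FPKM in CON and 25.5, 26.8 and 26.0 FPKM in RA. The RA samples were all below the CON samples, although CON sample 2 and RA sample 2 nearly met. Myc had a log2 fold change of -0.14 ± 0.067 (SE; adjusted p = 0.247, edgeR), with a 95% interval from 0.815- to 1.01-fold.

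**Figure D2:**
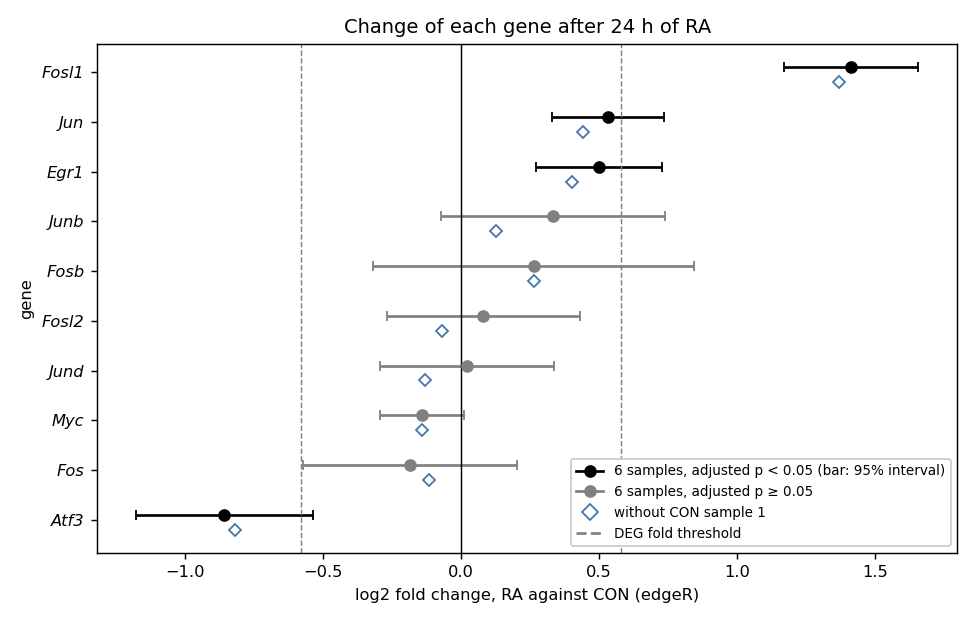
Log2 fold change of RA against CON (horizontal axis) for each gene (vertical axis) with its 95% interval, in black where the adjusted p was below 0.05 and in grey otherwise, with open diamonds for the fit without CON sample 1. Fosl1, at 1.41, is the one gene whose whole interval lies above the DEG threshold, Jun and Egr1 lie between 0 and that threshold, and Fosl2 and Jund cross 0 without CON sample 1.

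In 4 of the 10 genes (Fosl1, Jun, Junb and Egr1) every RA sample was above every CON sample, and in 2 (Atf3 and Myc) every RA sample was below. Over all tested genes these shares were 18.9% and 13.3%, or 32.2% in both directions. CON sample 1 was the lowest CON sample for 6 of the 10 genes and the highest for 2. The correlation of log2 CPM (counts scaled to depth) over all tested genes was 0.985 and 0.983 between CON sample 1 and the other CON samples, against 0.992 between CON samples 2 and 3 and 0.991 for each pair of RA samples. The coefficient of variation in CON was 27% for Junb, 20.1% for Jund and 18.8% for Fosl2, while in RA it was 2.31%, 3.98% and 5.87%. Whether anything in the preparation of CON sample 1 played a part was not tested.

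Levels per length can be set side by side across genes. In CON the order was Jund (55.3 ± 11.1 FPKM), Myc (28.5 ± 1.44), Jun (17.3 ± 1.99), Junb (17.2 ± 4.65), Fosl2 (13 ± 2.44), Egr1 (11.9 ± 1.49), Fosl1 (5.08 ± 0.266), Fos (3.05 ± 0.305), Atf3 (2.44 ± 0.191) and Fosb (0.242 ± 0.0194), each as mean ± SD of 3 samples. Jun, Junb, Fosl2 and Egr1 overlapped with their neighbours in this order, and between the other neighbours the sample ranges did not overlap. In RA, Jund stayed first at 56.8 ± 2.26 FPKM, Myc (26.1 ± 0.654) and Jun (25.3 ± 0.177) overlapped, and Egr1 at 17.1 ± 0.892 FPKM stood above Fosl2. Fosl1 reached 13.7 ± 1.49 FPKM in RA and overlapped with Fosl2, at 13.9 ± 0.816 FPKM (SD, n = 3 each). The gene length behind the FPKM of Fosl2, 744 bases, was the shortest of the 10, and that of Fosb, 3741 bases, the longest, so the order depends on these annotated lengths.

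The makeup of the Fos family transcripts shifted with Fosl1. Summed over Fos, Fosb, Fosl1 and Fosl2, the family had 18.6, 22.6 and 22.9 FPKM in CON and 33.4, 28.1 and 30.3 FPKM in RA. Fosl1 held 23.9% ± 1.59 of this sum in CON, which compares with 44.7% ± 1.29 in RA (SD, n = 3 each). The share of Fosl2 was 60.5% ± 4.84 and 45.5% ± 1.38, and that of Fos 14.5% ± 3.15 and 8.79% ± 0.879. Per unit of Fos, there was 1.43, 1.70 and 1.93 of Fosl1 in CON samples 1, 2 and 3, against 4.93, 5.74 and 4.69 in the RA samples. Without division by gene length, as shares of scaled counts, Fosl1 held 35.5% in CON and 59.1% in RA, Fosl2 40.3% and 26.9%, and Fos 20.5% and 11.1%. The order of Fosl1 and Fosl2 in RA thus depends on the length of 744 bases behind the FPKM of Fosl2, and the annotation it came from is not given in the sources used here. These shares sum to a whole, so a rise of 1 gene lowers the shares of the others.

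Jund held most of the summed FPKM of the Jun family in both groups, but as shares of scaled counts it held 52.3% in CON and 44.8% in RA. Its share of the summed FPKM of Jun, Junb and Jund was 61.5% ± 2.14 in CON and 54.6% ± 0.823 in RA. Jun held 19.5% ± 1.89 and 24.4% ± 0.751, and Junb 18.9% ± 2.15 and 21.1% ± 0.104 (SD, n = 3 each). The family sum was 70.2, 97.4 and 102 FPKM in CON and 101.2, 104.3 and 106.4 FPKM in RA. CON sample 1 was low here, and the other CON samples were close to RA.

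**Figure D3:**
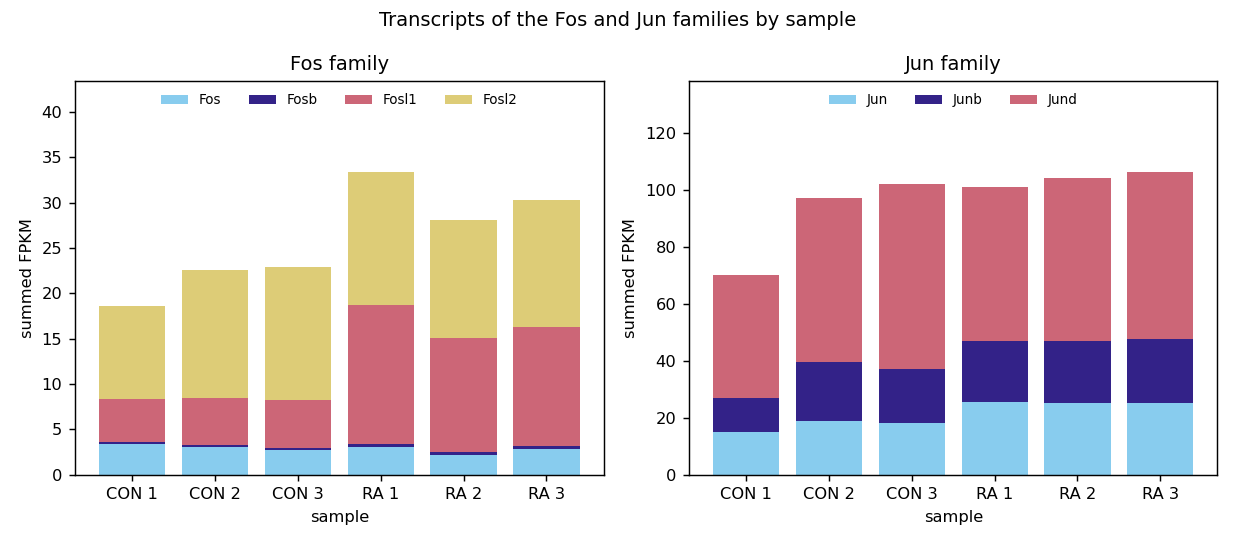
Summed FPKM (vertical axis) of the Fos family (left) and the Jun family (right) in each sample (horizontal axis), divided by gene. The Fosl1 segment grows from about 5 FPKM in each CON sample to between 12.6 and 15.4 FPKM in RA, and Jund makes up more than the other Jun genes together in every sample.

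Other partners of Fos and Jun belong to the bZIP class as well. Of 13 such genes listed, 12 were present and tested. Of these, 2 were DEGs, both higher in RA, against 2.67% of all tested genes in that direction. By adjusted p alone 4 of the 12 passed, 3 higher and 1 lower in RA, against 9.82% of all tested genes. Maff, a small Maf protein without a transactivation domain, went from 2.43 ± 0.406 to 4.69 ± 0.282 FPKM (SD, n = 3 each), which is 0.93 on the log2 scale (adjusted p = 0.00652, edgeR). Maff was a DEG in all 6 leave-one-out fits. Maf with a log2 fold change of 0.50 and Atf4, a factor of the amino acid stress response, with -0.31 passed by adjusted p alone, and both are named because of their values. Maf did not pass when any 1 of the RA samples was left out (0.49, 0.52 and 0.49). The median log2 fold change of the 12 genes was 0.087, against -0.0057 over all tested genes.

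Other immediate early genes were followed as a list. Of 28 genes of this kind, 25 were tested, and 2 were DEGs, both higher in RA, where 2.67% of all tested genes were DEGs in that direction. By adjusted p alone 6 of the 25 passed, all higher in RA, against 5.31% of all tested genes. Arc, the gene of a cytoskeletal protein best known from neurons, had 0.796, 0.986 and 1.00 FPKM in CON and 2.25, 1.85 and 2.23 FPKM in RA. This was a low level, and every RA sample was well above every CON sample, with a change of 1.17 ± 0.161 on the log2 scale (SE; adjusted p = 0.00276, edgeR). Sik1, a salt-inducible kinase, went from 1.84 ± 0.377 to 3.32 ± 0.302 FPKM, or 0.83 on the log2 scale (SD over 3 samples; adjusted p = 0.0129, edgeR). Sik1 lost its DEG call without RA sample 1 (0.845) or RA sample 3 (0.76). Of the genes below the fold threshold, Sgk1, a serum- and glucocorticoid-induced kinase, rose with 0.51, the matricellular gene Ccn2 with 0.55, the MAP kinase phosphatase gene Dusp1 with 0.51 and Ier3 with 0.47, all 4 named after their values were seen. Ier3 lost this call without CON sample 2 (0.53) or any 1 of the RA samples (0.49, 0.46 and 0.47). None of the 25 genes fell by adjusted p in the fit of all 6 samples, but without CON sample 1 Klf2, a factor of the Krüppel family named for this value, was a DEG and lower in RA (-0.592, adjusted p = 6.58e-04, edgeR). Klf2 had 6.75, 18.6 and 19.4 FPKM in CON and 13.6, 12.0 and 12.6 FPKM in RA, so that CON sample 1 lay below RA and the other CON samples above it, and with all samples its change was -0.24 (adjusted p = 0.697, edgeR). Their median log2 fold change was 0.21, and 0.13 without CON sample 1. Egr3, Egr4 and Npas4 were at or near 0 reads and were not tested.

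The kinases that relay signals to AP-1 were followed as transcripts. Of 26 genes of MAP kinases and the nuclear factors they phosphorylate, 25 were present, 22 were tested, and 0 were DEGs by edgeR or passed its adjusted p, against 4.96% and 9.82% of all tested genes, while DESeq2 called 1 DEG and 5 had an unadjusted p under 0.05. The smallest p of the list was that of Map2k6, a kinase upstream of p38, with 1.35 ± 0.275 FPKM in CON and 0.810 ± 0.0843 in RA (SD over 3 samples), and thus a change of -0.75 ± 0.217 on the log2 scale (SE; adjusted p = 0.0692, edgeR), which also was the 1 gene with an unadjusted p under 0.05 and a change beyond the fold threshold. A list of 22 genes holds few at shares of 4.96% and 9.82%, so the counts of 0 say little about it. The median over the 22 genes was 0.067. These are transcript levels, and the activity of the kinases was not measured.

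Genes known as AP-1 targets in other cells included several proteases that rose. Of 19 such genes 17 were tested, 7 were DEGs, all higher in RA, and 16 of the 17 had a positive log2 fold change. Over all tested genes 2.67% were DEGs higher in RA, and 6574 of 13438 had a positive log2 fold change. This list was chosen with earlier results of these data known, so its counts are only a description. The proteases Mmp13, Mmp9 and Mmp3 had log2 fold changes of 2.26, 2.88 and 1.02, and Plau, the urokinase plasminogen activator, had 0.66. Ccnd1, the cyclin of the G1 phase, had 87.6, 94.6 and 89.8 FPKM in CON and 187.2, 176.8 and 176.1 FPKM in RA, so that every RA sample was far above CON, with a change of 0.98 ± 0.0551 on the log2 scale (SE; adjusted p = 3.77e-05, edgeR). The chemokine gene Ccl2 and the hyaluronan receptor gene Cd44 had 1.22 and 0.62. All 7 were DEGs in all 6 leave-one-out fits. The growth factor gene Hbegf rose by adjusted p alone, with 0.44, and was named after its values were seen. Plaur, Timp1, Ptgs2, Vegfa, Lif, Mmp10 and Areg had log2 fold changes from 0.07 to 0.78 that did not pass, and Hmox1 had -0.21 (adjusted p = 0.0734, edgeR). The median of the 17 genes was 0.59. Many of these genes respond to other factors too, and no AP-1 binding was measured.

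**Figure D4:**
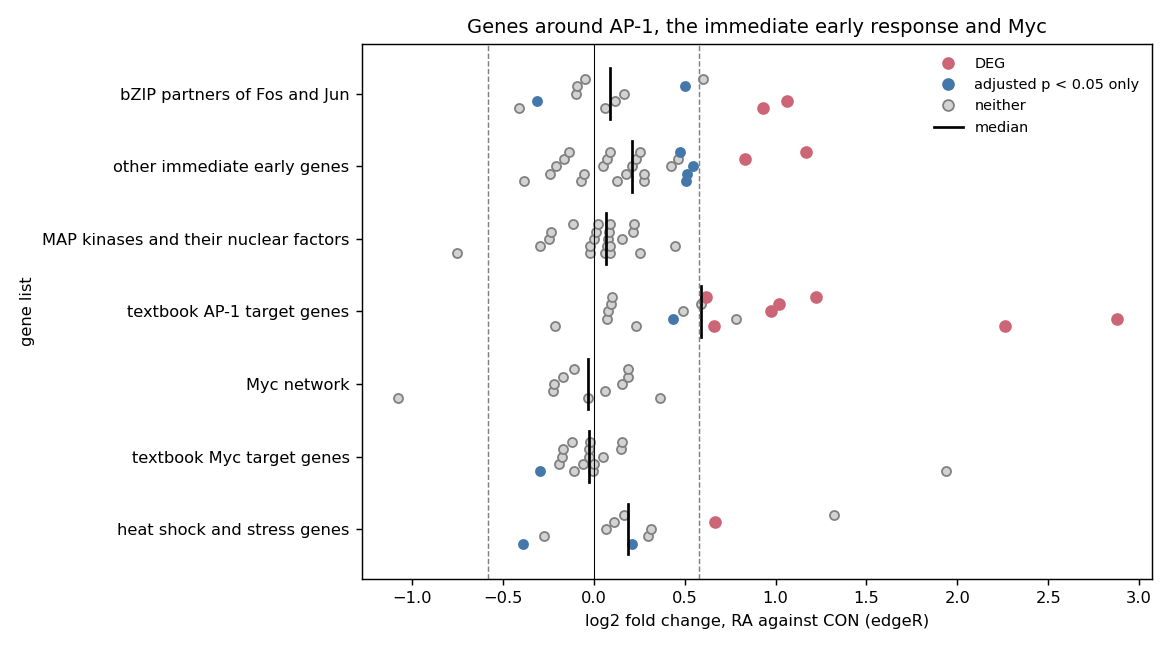
Log2 fold change of RA against CON (horizontal axis) of each tested gene in 7 lists (vertical axis), red for DEGs, blue for genes with an adjusted p below 0.05 only and grey for the rest, with the list median as a black bar and the DEG thresholds as dashed lines. The 7 red points of the AP-1 targets reach from 0.62 to 2.88 (Mmp9, at a low level), while the MAP kinase and Myc lists have none.

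Around Myc, 0 of 11 network genes (Max, its Mxd and Mnt partners and relatives) and 0 of 16 Myc target genes were DEGs by edgeR, against 4.96% of all tested genes, and likewise 0 by DESeq2. Lists of this size hold about 1 DEG or fewer at that share, so the counts of 0 say little about them. In each of these lists 3 genes had an unadjusted p under 0.05 in edgeR. Mga had the smallest p of the network, at -0.23 on the log2 scale (adjusted p = 0.106, edgeR). The median was -0.034 for the network and -0.028 for the targets. Among the targets, Odc1, the gene of ornithine decarboxylase, passed by adjusted p alone. It had 62.4, 64.3 and 62.3 FPKM in CON and 51.8, 53.0 and 50.6 FPKM in RA, lower in every RA sample, with a change of -0.29 ± 0.0535 on the log2 scale (SE; adjusted p = 0.0102, edgeR). Odc1 lost this call when CON sample 2 (-0.285) was left out, and likewise for RA sample 1 (-0.29) and RA sample 3 (-0.28). By unadjusted p 1 gene of the network, Mycl, with 0.281 ± 0.133 FPKM in CON and 0.131 ± 0.0534 in RA and named after its values were seen, and 0 of the targets were past the fold threshold. Srm, singled out for a stray sample, was listed at 17.6 FPKM in RA sample 2 and at 2.61 FPKM or less in the 5 other samples, and its log2 fold change of 1.94 rested on that sample.

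Stress genes bear on the same factors, because heat shock and handling of cells can induce them. Of 11 listed, 10 were tested, and Gadd45a, a growth arrest gene, was the 1 DEG, against 4.96% of all tested genes, while 3 of the 10 passed by adjusted p, against 9.82%. Gadd45a rose from 92.3 ± 3.71 to 148 ± 3.47 FPKM (SD, n = 3 each), which is 0.66 on the log2 scale (adjusted p = 2.27e-04, edgeR), and was a DEG in all 6 leave-one-out fits. The heat shock gene Hspa8 with 0.21 and Ddit3, the gene of CHOP, with -0.39 passed by adjusted p alone, both named after their values were seen. Hspa8 did not pass without CON sample 2 (0.22) or any 1 of the RA samples (0.21 in all 3), and Ddit3 not without CON sample 3 (-0.415) or any 1 of the RA samples (-0.38, -0.44 and -0.35). Hsp90aa1, singled out like Srm, had 22.8 FPKM in RA sample 1 and 2.67 to 5.37 FPKM in the 5 other samples. This gave 1.32 on the log2 scale (adjusted p = 0.287, edgeR), and -0.14 without RA sample 1. Hspa1b was near 0 in both groups, at 0.196 ± 0.0309 and 0.161 ± 0.0893 FPKM. The summed FPKM of the 10 genes ran from 1113 to 1150 in CON and from 1307 to 1366 in RA, and their part in the changes of Fosl1, Jun and Egr1 was not tested.

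Of all genes, the 3 with the pattern most like Fos over the 6 samples, by the correlation of log2 CPM, were Tlcd5 (Pearson's r = 0.990), Ogfod1 (0.979) and Mtrf1l (0.978). Those most like Jun were Chst2 (0.999), Adamts1 (0.998) and Nectin1 (0.998), and those most like Egr1 were Fbln1 (0.995), Ppl (0.994) and Gse1 (0.993). For Myc they were AABR07034657.1 (0.999), Eef1b2 (0.993) and Bet1l (0.989). Chst2, Ppl and Gse1 were DEGs and higher in RA, with log2 fold changes of 0.78, 1.49 and 0.63. Gse1 was no DEG when CON sample 1 (0.51) or CON sample 2 (0.65) was left out, and likewise for RA sample 1 (0.62) and RA sample 3 (0.595). These values describe 6 samples that share their groups and libraries, among 13438 genes that were searched.

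The labels of treatment and cell type were checked against marker genes. All 4 retinoid response genes checked (Cyp26a1, Cyp26b1, Rarb and Dhrs3) were DEGs and higher in RA in the fit of all 6 samples, Rarb at a low level. Over all tested genes this share was 2.67%. The number of DEGs among them was 3 with the replicate block, in both limma fits and in 5 of the 6 leave-one-out fits. In those 5 fits Rarb was the gene that lost its call, at 1.12 to 1.54, and it kept the call without CON sample 1 (1.85). Of 9 chondrocyte markers, 8 were DEGs and lower in RA (Acan, Col2a1, Col9a1, Col11a1, Matn3, Comp, Hapln1 and Cnmd), against 2.29% of all tested genes. Their sum with Sox9 ran from 7875 to 9711 FPKM in CON and from 4936 to 5256 FPKM in RA. Col11a1 was not a DEG without CON sample 1 (-0.56), nor Comp without CON sample 3 (-0.56) or RA sample 1 (-0.57). Macrophage markers summed to between 14 and 14.9 FPKM in CON and between 16.4 and 17.8 FPKM in RA, nearly all of it Cd14, with Ptprc, Adgre1 and Aif1 at or near 0. Of 4 macrophage markers tested 0 were DEGs by edgeR, against 4.96% of all tested genes, and 1 had an unadjusted p under 0.05. Endothelial markers summed to at most 0.214 FPKM, and Tek was the 1 tested. Of 6 fibroblast markers tested 0 were DEGs by edgeR and 2 passed by adjusted p (Pdgfra higher and Dcn lower in RA), against 4.96% and 9.82% of all tested genes. Lists this short hold few DEGs at that share, so the counts of 0 say little about these cell types. Of the fibroblast markers 3 had an unadjusted p under 0.05, and Pdgfra had the smallest p with a log2 fold change of 0.44. Their sum ran from 3716 to 4908 FPKM in CON and from 4807 to 5061 FPKM in RA. Dcn (-0.41) did not pass without CON sample 2 (-0.41) or any 1 of the RA samples (-0.44, -0.40 and -0.41). The 2 skeletal muscle markers tested went in opposite directions. Tnnt3 fell by 1.00 on the log2 scale, and the other was higher in RA, with 0.39, and did not pass by adjusted p. The DEG call of Tnnt3 was lost when CON sample 2 (-0.98) was left out, and likewise for RA sample 1 (-0.90) and RA sample 2 (-0.89). Myh3 and Ckm were at or near 0. The summed FPKM of the skeletal muscle markers was 9.13 to 10.8 in CON and 8.55 to 10.7 in RA. The osteoblast marker Ibsp rose, with 1.47, and the 4 osteoblast markers summed to between 1.32 and 2.11 FPKM in CON and between 2.64 and 3.49 FPKM in RA. What part these cell type markers have in the changes of the 10 genes was not tested.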

How the data were processed

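Poly(A) RNA libraries of 3 CON and 3 RA samples were made with the NEBNext Ultra RNA kit. The authors deposited raw read counts per gene, without normalization, together with FPKM values. Each FPKM equals the count divided by a fixed gene length and the sample's summed counts. The submitters' processing notes name HISAT2, HTSeq 0.13.5 and the build Rnor_6.0, without saying how each was used. The annotation and the strand setting are not given in the sources used here, so reads of a gene and of an overlapping antisense gene cannot be told apart.

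Counts were tested with edgeR 4.0.16 in R 4.3.3 (filterByExpr with a minimum count of 10, TMM, glmQLFit and glmQLFTest, no covariates, all 6 samples), and p-values were adjusted by Benjamini-Hochberg over 13438 genes. Standard errors and 95% intervals were derived from the F statistic. Total counts ran from 29370025 to 38007486, so an unseen gene could still be present at up to 0.0789 to 0.102 CPM (3 counts, counting error only). In counts simulated for RA against CON with 13438 genes, the test called 95% of 100 genes changed by 1 on the log2 scale and 99% of 100 changed by 2. It also called 6 unchanged genes. Every simulated gene had the same spread between samples (a biological coefficient of variation of 0.122), and no sample was outlying. These percentages therefore do not carry over to genes with a larger spread, such as Junb, Jund and Fosl2 in CON. Alternatives were other scalings, DESeq2 1.42.0, limma 3.58.1 on log2(FPKM + 0.1) and log2(FPKM + 1), other filters, a replicate block and each sample left out. The text names the 10 genes, each DEG of the gene lists, the gene with the smallest p of each list without a DEG, and the 3 genes most like Fos, Jun, Egr1 and Myc, and some genes of the lists are not reported here. The genes and lists were chosen with earlier results of these data known.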

Additional observations from a re-analysis of the deposited data

How the results depend on the processing

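Of the alternative values of the 10 log2 fold changes, 133 kept direction and call, 2 gained and 1 lost a DEG call, and 3 changed sign. The last were Fosl2 at -0.069 and Jund at -0.13 without CON sample 1, and Jund at -0.0042 without RA sample 3, and the cause was not tested. Leaving out each sample gave -0.069 to 0.19 for Fosl2 and -0.13 to 0.17 for Jund. Fosl1 kept its call in all 14 alternative fits, and Atf3 in 13, with -0.54 in limma on log2(FPKM + 1), where 1 of the 10 genes and 434 of all genes were DEGs; that pseudocount shrinks the changes of low genes. Leaving out each sample in turn gave 2 to 3 DEGs among the 10 genes, 3 to 4 genes with an adjusted p below 0.05 and 480 to 755 DEGs in all. Among the other immediate early genes 1 to 3 were DEGs in these fits. With an unadjusted p below 0.05 and the fold threshold, 1017 genes, 1 gene of the MAP kinase list and 1 of the Myc network were called, and DESeq2 called 1 gene of the MAP kinase list. The replicate number as a block gave 684 DEGs and 2 of the 10 genes, and changed no call among them. Same-numbered samples deviated from their group means with correlations of 0.0928, -0.0123 and 0.0118, and not every sample correlated best with its own number, so the numbers were not taken to pair the samples. As shares of scaled counts in place of FPKM, Fos held 20.5% of its family in CON and 11.1% in RA, Fosb 3.81% and 2.9%, Fosl1 35.5% and 59.1%, and Fosl2 40.3% and 26.9%. In the Jun family Jun held 30.5% and 36.8%, Jund 52.3% and 44.8%, and Junb 18.4% in RA. With 3 samples per group and 25 to 38 reads of Fosb per sample, its interval of 0.802- to 1.80-fold marks what the depth can show.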
